A study of Mus musculus with 6 samples.

Results

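Among the small RNAs that the authors' deposited table lists for vesicles of the mouse cell line RAW264.7, 3 carry a mouse miRNA name and only 1 or 2 miRBase precursors, with miR-5134-5p left out by the rule. They are 3 of the 8 species in the table and 3 of the 5 with a mouse name. All 8 rows carry the level word middle, and whether the authors detected further species was not examined. The rule uses name and precursor count and no measured value, but it was set with earlier results of these data known. mmu-miR-743b-5p_R+1 was named for 2 precursors, those of mouse and rat. mmu-miR-3079-5p and mmu-miR-7669-5p_R+1 were each named for 1, the mouse precursor.

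RAW264.7 is a macrophage-like line that can form osteoclasts, the cells that resorb bone, when given the cytokine RANKL. The study has 6 small RNA libraries. Of these, 3 are labelled as control and 3 as mature osteoclasts induced by RANKL at 50 ng/ml. The labels describe 5 days of induction and then 48 h in serum freed of exosomes before vesicles were spun down, and their protocol text gives no separate schedule for the controls. The labels name no allele or transgene for either group, and both come from the same line, so they share its single origin. The labels do not tie the library numbers to separate cultures.

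No level of the 3 miRNAs is given for any library. The deposited table has no header line, so its 12 columns of per-library values carry no names, and an assumed order of columns would decide which values count as control. Depth, replicate spread and the effect of RANKL on the 3 miRNAs were therefore not analysed here. What follows describes the molecules: their sequences, the hairpins they are cut from, their genomic surroundings and the mRNAs whose 3' UTR contains their seed match. With no measurement per library, no statistical test was made, and the differences below are differences between sequences.

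A miRNA is cut from a hairpin transcript by the nuclease Drosha at the base of the stem and by Dicer near the loop, and each cut leaves a short 3' overhang. One strand of the resulting duplex is loaded into an Argonaute protein. There its seed, nt 2 to 8 from the 5' end, pairs with sites that lie mostly in 3' UTRs of mRNAs, which lowers translation or mRNA stability. A change at the 3' end of a miRNA leaves the seed as it is, whereas a change at the 5' end shifts it.

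The listed species are printed here 5' to 3' with the seed in capitals, because the seed decides which sites each can match.
mmu-miR-743b-5p_R+1: tGTTCAGActggtgtccatcat
mmu-miR-3079-5p: tTTGATCTgatgagctaagctgg
mmu-miR-7669-5p_R+1: aGTACCACcatacacagcttttgt

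The 3 species are 22, 23 and 24 nt long in that order. Of the 1679 mouse mature miRNA names in the RefSeq table (GRCm38.p6), 21.8% are 21 nt long, 44.8% are 22 nt, 16.6% are 23 nt and 5.42% are 24 nt. The listed length of miR-7669-5p is thus uncommon among these names. They are of registered forms, however, and the registered miR-7669-5p has 23 nt and the registered miR-743b-5p 21 nt. miR-743b-5p and miR-3079-5p begin with U in RNA letters, as 42.2% of the 697 names of 5p miRNAs do, and miR-7669-5p begins with A, as 29.3% do. The GC content of the species is close among them, at 45.5% for miR-743b-5p, 43.5% for miR-3079-5p and 41.7% for miR-7669-5p. The 3 seeds differ from each other. miR-743b-5p shares its seed with 1 other mouse miRNA in the RefSeq table, miR-6948-5p from chromosome 14, and the other two share theirs with 0.

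The hairpins are printed with the listed species in capitals, from the deposited table, to show how much stem and loop surrounds each.
miR-743b, chrX:66777256-66777332, minus strand: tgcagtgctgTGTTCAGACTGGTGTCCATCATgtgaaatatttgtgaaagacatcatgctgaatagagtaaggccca
miR-3079, chr15:76290879-76290968, minus strand: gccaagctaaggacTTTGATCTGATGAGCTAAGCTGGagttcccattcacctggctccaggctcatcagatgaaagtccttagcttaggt
miR-7669, chr3:90011153-90011210, minus strand: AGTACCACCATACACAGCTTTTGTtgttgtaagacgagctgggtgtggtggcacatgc

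Positions were read as GRCm38, since each hairpin has the bounds of its gene in both GENCODE M21 and RefSeq. The miR-743b hairpin is 77 nt long and its species starts at nt 11. The miR-3079 hairpin, the longest of the 3 at 90 nt, keeps 14 nt of stem below the species. In the 58 nt miR-7669 hairpin the species starts at nt 1, so no stem below it is listed. The paired stretches stand out in the plot of pairing along the hairpins.

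**Figure D1:**
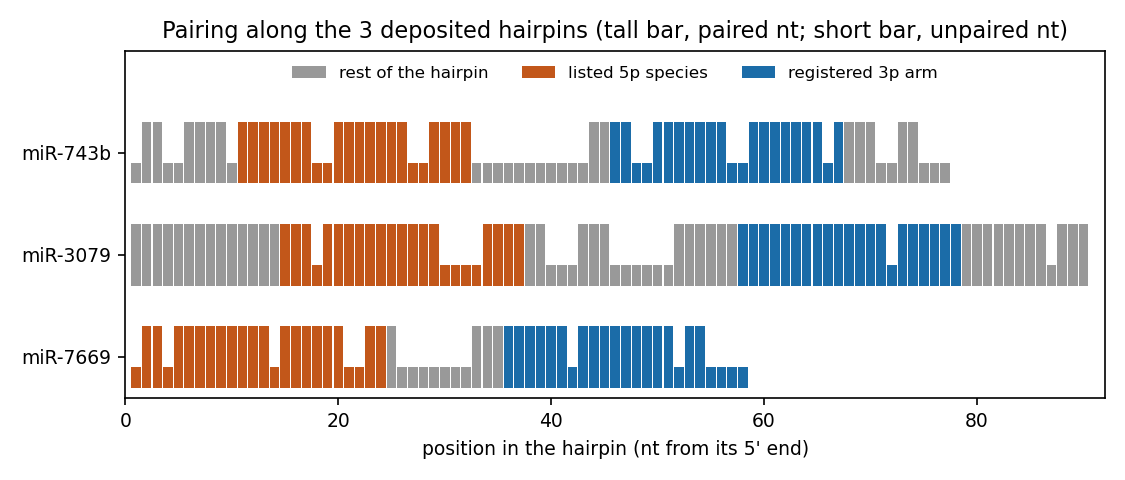
Pairing state of each nt along the 3 deposited hairpins, counted from the 5' end on the x axis; tall bars are paired nt and short bars unpaired nt in the deposited structure. The listed 5p species (orange) starts at nt 11 in miR-743b, nt 15 in miR-3079 and nt 1 in miR-7669, and the registered 3p arm is in blue.

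The 3 hairpins differ in how regular their stems are. The miR-3079 stem holds 37 base pairs, of which 18 are G-C, 18 are A-U and 1 is a G-U wobble, and its longest unbroken helix has 14 pairs. The miR-743b stem holds 24 pairs, with 4 wobbles, and its longest helix has 7 pairs. The miR-7669 stem holds 20 pairs, with 3 wobbles and a longest helix of 9. All 18 pairs made by miR-3079-5p are Watson-Crick pairs, whereas 3 of the 18 pairs of miR-743b-5p and 2 of the 19 of miR-7669-5p are wobbles. In each species 6 of the 7 seed nt are paired within the hairpin.

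Set beside 1005 mouse hairpins of the RefSeq table, the miR-3079 hairpin lies near the stable end. Its minimum folding energy from RNAfold is -55.6 kcal/mol, or -0.618 kcal/mol per nt, and 3.68% of the RefSeq hairpins fold more stably per nt. An unbroken helix of 14 pairs or more occurs in 11.3% of them. The miR-7669 hairpin, at -25.7 kcal/mol and -0.443 per nt, has 33.9% of the hairpins below it. The miR-743b hairpin, at -28.8 kcal/mol and -0.374 per nt, has 63.8% below it and so folds less stably than the median hairpin, which is at -0.406 per nt. These ranks describe the sequences and have no error estimate, since each energy is a single computed value. They apply to the hairpins as listed, which include different lengths of stem below the species. The ranks were not recomputed with other folding parameters.

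**Figure D2:**
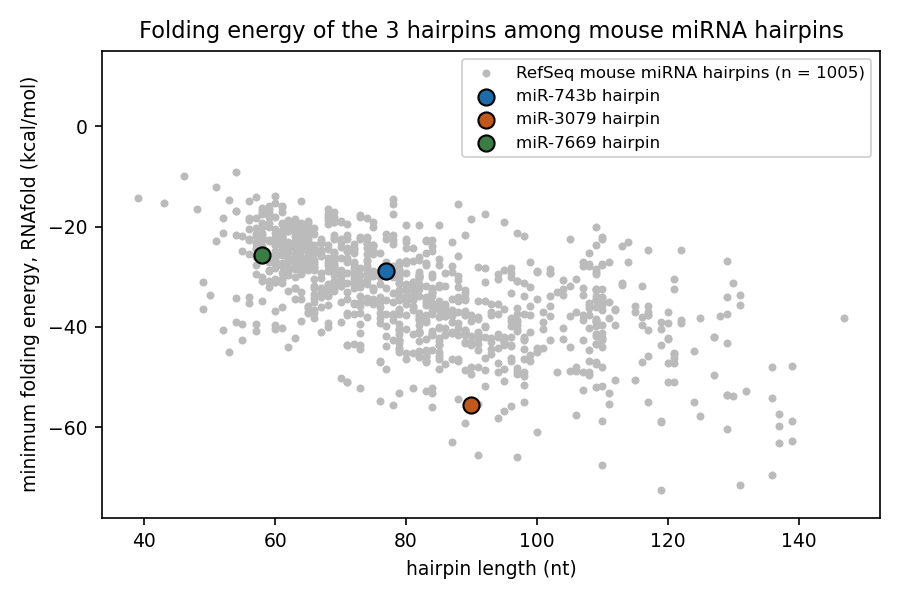
Minimum folding energy (kcal/mol, y axis) against hairpin length (nt, x axis) for 1005 RefSeq mouse miRNA hairpins (grey) and the 3 deposited hairpins (coloured). The miR-3079 hairpin at -55.6 kcal/mol sits towards the lower edge of hairpins of its length, and the miR-743b and miR-7669 hairpins sit among the others.

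The 3' ends of the listed species lie on the loop side of their hairpins. miR-743b-5p and miR-7669-5p are listed with 1 nt more at the 3' end than their registered forms. In both cases the added base, U in RNA letters, is also the next base of the hairpin. Whether this base was cut from the hairpin or added after the cut was not tested. For miR-743b the registered 5p form, of 21 nt, leaves an overhang of 1 nt on the loop side when laid against the registered 3p arm, and the listed form leaves 2 nt. The overhang on the other side of this duplex, the 3' end of the 3p arm, is also 2 nt. These lengths rest on the registered 3p arm, since miR-743b-3p is not among the 8 listed species, and no duplex was measured. The stretch of this arm that the deposited hairpin has in capitals ends 1 nt earlier, which would make the base-side overhang 1 nt. The RNAfold structure of this hairpin differs from the deposited one at 2 positions. For miR-3079 the overhangs are 1 nt on the loop side and 3 nt on the base side. For miR-7669 the loop-side overhang is 4 nt with the listed form and 3 nt with the registered one, and the base-side overhang is 3 nt. Overhangs were counted in the deposited structure, with an unpaired end carried outwards from the nearest pair.

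One hairpin of the 3 has a second marked stretch. In the deposited hairpins the first stretch in capitals is the listed species in all 3. In miR-743b a further stretch of 21 nt, nt 46 to 66, is in capitals. It has the start of the registered miR-743b-3p and ends 1 nt before it. The table does not say what the capitals stand for, and no row for miR-743b-3p is among the 8. The miR-3079 and miR-7669 hairpins have 1 stretch in capitals each.

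Mir743b lies in a dense run of miRNA genes on the X chromosome, a region known in mice for miRNAs expressed in the testis. Within 10000 bp lie 3 other miRNA genes, Mir743 at 438 bp, Mir742 at 3041 bp and Mir883a at 3426 bp. Within 50000 bp there are 14, all on the minus strand as Mir743b is. The closest in sequence as well as in distance is miR-743a, made from Mir743. Both arms of both hairpins are printed with the seed in capitals, to show that the arms differ in where they vary; miR-743b-5p is the listed form, and the others are RefSeq's, in RNA letters.
miR-743b-5p: tGTTCAGActggtgtccatcat
miR-743a-5p: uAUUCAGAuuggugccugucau
miR-743b-3p: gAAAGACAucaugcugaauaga
miR-743a-3p: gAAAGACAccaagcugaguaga

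The 3p arms of miR-743a and miR-743b share a seed, and their 5p arms do not. Counted from the 5' end with the miR-743b base first and in DNA letters, the 5p arms differ at 5 of 22 nt (G2A, C9T, T15C, C17T and A18G), and G2A falls in the seed. The 3p arms differ at 3 of 22 nt (T9C, T12A and A18G), all outside the seed. The registered miR-743a-5p is 22 nt long, so the listed 22 nt form of miR-743b-5p has its length and ends on the same base.

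Across the 14 neighbours, 0 of the 14 5p arms have the seed of miR-743b-5p and 1 of the 14 3p arms, that of miR-743a, has the seed of miR-743b-3p. Identity of the 5p arms with miR-743b-5p runs from 7 of 22 nt in miR-881-5p to 17 of 22 in miR-743a-5p. miR-871-5p, 33096 bp away, is identical at 16 of 22 nt and differs from the seed of miR-743b-5p only by G2A, the same change as in miR-743a-5p. Identity of the 3p arms runs from 3 to 19 of 22 nt when the 5' ends are aligned. Where a shift of up to 2 nt is allowed, 6 of the 14 3p arms align better at a shift and the lowest identity rises to 8 nt, while 0 of the 14 5p arms do. The gain at the best shift was largest in miR-741-3p and miR-871-3p, from 3 to 14 nt, and smallest in miR-883a-3p, from 7 to 8 nt. No chance level was computed for taking the best shift, and the positions of the 5' ends in the neighbouring hairpins were not compared.

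**Figure D3:**
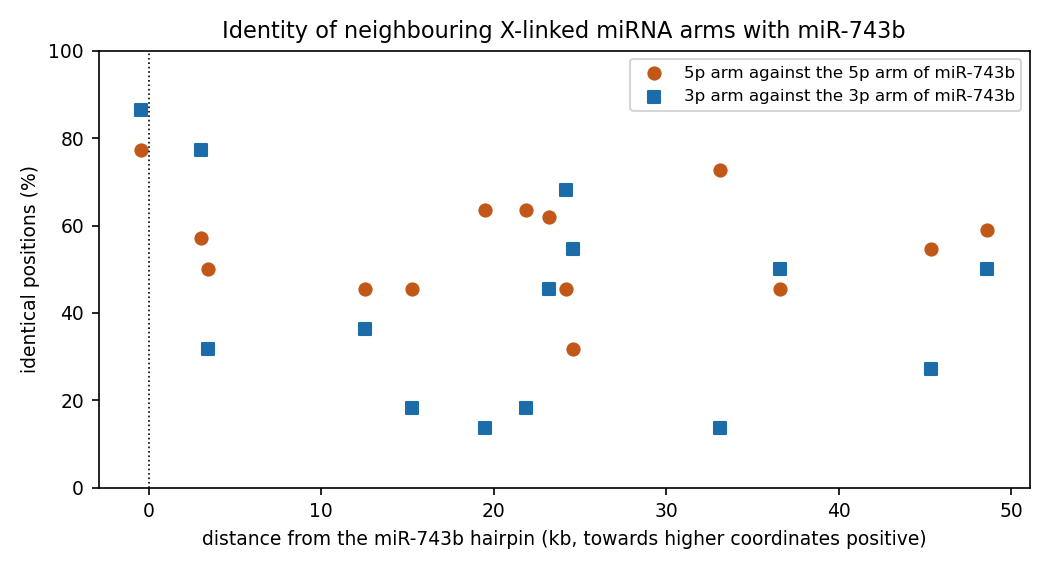
Identical positions (%, y axis) between each arm of 14 neighbouring X-linked miRNAs and the same arm of miR-743b, with 5' ends aligned, against the distance of the gene from the miR-743b hairpin (kb, x axis); circles are 5p arms and squares 3p arms. miR-743a, 438 bp away, is highest for both arms, and identity does not fall steadily with distance.

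Mir3079 and Mir7669 stand alone among miRNA genes and inside other genes. Neither has another annotated miRNA gene within 10000 bp, and within 50000 bp Mir3079 has 1, Mir6953. Mir3079 lies in intron 4, the last, of Spatc1 (chr15:76285055-76292163, 7109 bp) on the opposite strand. Spatc1 encodes speriolin, a protein of the sperm centriole. The hairpin is 1195 bp from the last exon and overlaps an exon in 0 of the 2 Spatc1 transcripts that span it.

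Mir7669 lies on the sense strand of Ubap2l, in intron 22 of 25 (chr3:90010515-90012685, 2171 bp) of its longest principal transcript. Ubap2l encodes a protein that takes part in the assembly of stress granules. The hairpin is 1475 bp from the exon before it and 638 bp from the exon after it, and it overlaps an exon in 0 of the 8 Ubap2l transcripts that span it. The same intron holds Gm24608, an annotated snoRNA gene on the same strand, 423 bp from the hairpin. Opposite lies intron 2 of the lincRNA Gm19710 (chr3:90006360-90021277), an annotation that GENCODE has and the RefSeq table used here does not.

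The species themselves are distinctive among annotated transcripts, whereas the 3' part of one hairpin is not. Each of the 3 species occurs in 1 of 141767 GENCODE transcripts, its own gene, and with 1 mismatch allowed the count stays at 1 on both strands together. The hairpins were then cut into overlapping words of 15 nt, and each word was looked up in the transcripts of 55341 gene names. In miR-743b a word occurs in at most 4 other genes and in miR-3079 in at most 13. In miR-7669 the word at nt 41 to 55 occurs in 83 other genes. A word with as many other genes is found in 4.58% of the 1005 RefSeq hairpins, whose median is 5.

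The repeated stretch of miR-7669 coincides with its 3p arm, nt 36 to 58, printed here because it is the part that recurs, with its seed in capitals.
miR-7669-3p: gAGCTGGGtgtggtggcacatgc

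All 9 words within this arm occur in other genes, from 24 to 83 genes each and 222 genes together, in 116 of them on the same strand and in 107 on the opposite one. Whether the arm is part of an annotated repeat was not looked up. By contrast, the 10 words within miR-7669-5p occur in at most 2 other genes each, although 19 of its 24 nt are paired in the hairpin, mostly with this arm. The labels' protocol includes a filter against Repbase, a collection of repeats, for sequences that are not miRNAs. The labels do not say how it treated reads of this hairpin.

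**Figure D4:**
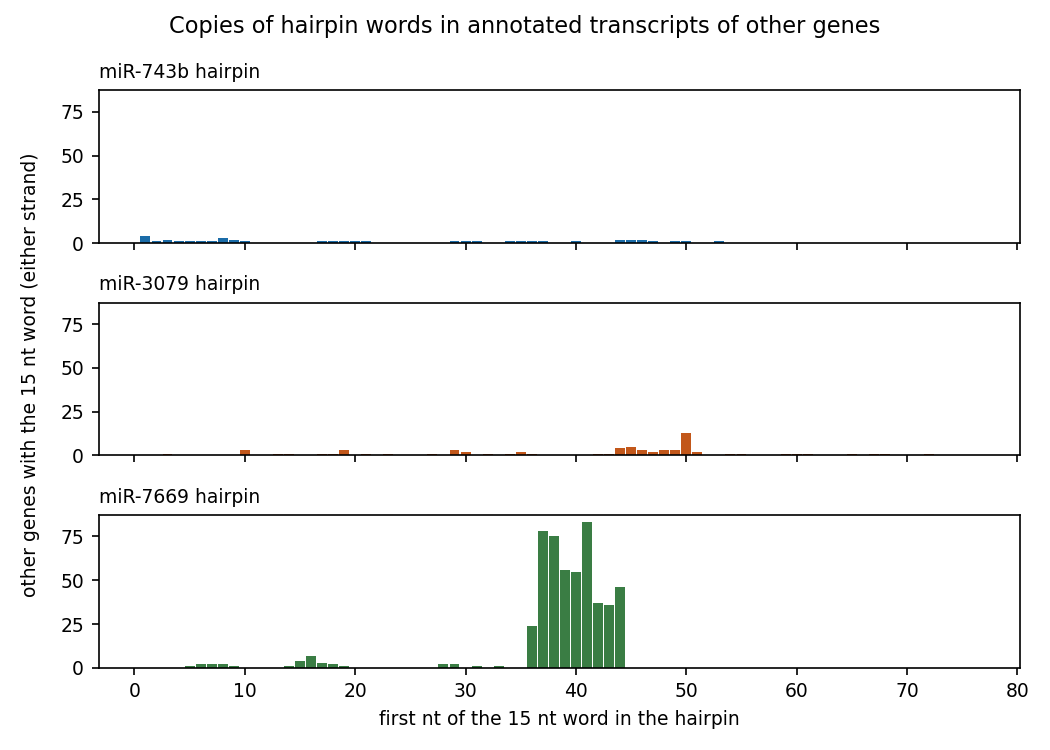
Number of other genes (y axis) whose annotated transcripts contain each 15 nt word of the 3 hairpins on either strand, against the first nt of the word (x axis). Counts reach 83 in the 3p arm of miR-7669, and stay at or below 4 in miR-743b and 13 in miR-3079.

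Seed sites in 3' UTRs show how many mRNAs each miRNA could pair with by its seed. A site is a match of 7 nt or more, either to nt 2 to 8 of the miRNA or to nt 2 to 7 followed by A, and an 8 nt site has both. The motifs are TCTGAAC or CTGAACA for miR-743b-5p, AGATCAA or GATCAAA for miR-3079-5p and GTGGTAC or TGGTACA for miR-7669-5p, searched on the strand of the mRNA. Of 20997 genes with a 3' UTR, the longest 3' UTR contains at least 1 site in 18.2% for miR-743b-5p, 11.5% for miR-3079-5p and 10.7% for miR-7669-5p. Over the 1399 distinct seeds of mouse miRNAs the median is 16.4% and the range is 0.419 to 38.9%. The seed of miR-743b-5p is above 61.6% of these seeds, that of miR-3079-5p above 20.3% and that of miR-7669-5p above 17.7%. Because the added nt is at the 3' end, these counts are the same for the listed and the registered forms.

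**Figure D5:**
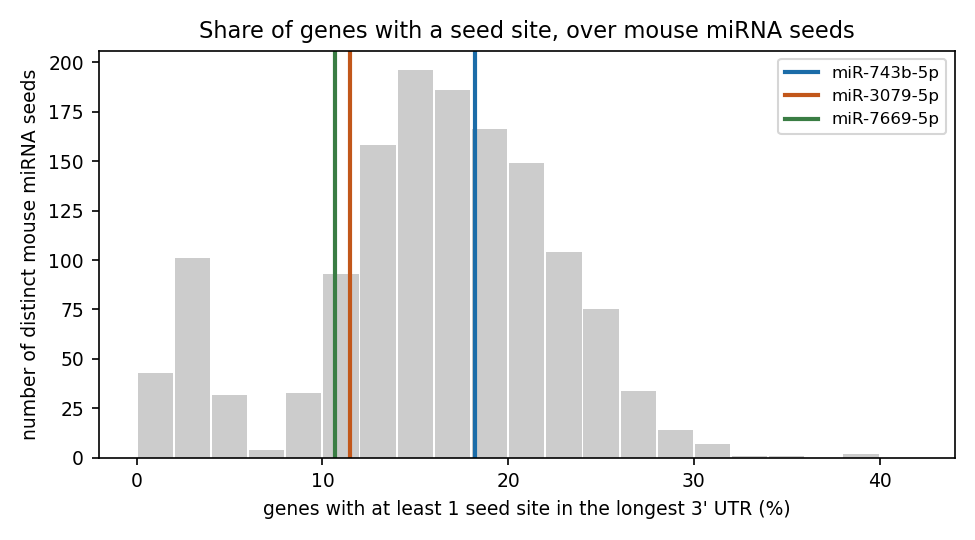
Distribution over 1399 distinct mouse miRNA seeds (y axis, number of seeds) of the share of genes with at least 1 seed site in the longest 3' UTR (x axis, %). Vertical lines mark miR-743b-5p at 18.2%, miR-3079-5p at 11.5% and miR-7669-5p at 10.7%, on both sides of the median of 16.4%.

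The sets of genes overlap in part. miR-743b-5p and miR-3079-5p have sites in 834 genes in common, 21.8% of the first set and 34.4% of the second. miR-743b-5p and miR-7669-5p share 796 genes, 20.8% and 35.3% of their sets. miR-3079-5p and miR-7669-5p share 531 genes, 21.9% and 23.6% of their sets. Over all genes 18.2% have a site for miR-743b-5p, 11.5% for miR-3079-5p and 10.7% for miR-7669-5p. The overlaps were not tested, and the sets share the same long 3' UTRs as candidates.

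JAK2 and STAT3, which the series' title mentions, carry signals from cytokine receptors to the nucleus. The 1232 nt Jak2 3' UTR contains 0 sites for any of the 3 miRNAs. The 3701 nt Stat3 3' UTR contains 1 site for miR-3079-5p, of 8 nt, and 0 for miR-743b-5p and miR-7669-5p. It is at nt 701 to 708 of the 3' UTR, and the stretch printed here, with the site in capitals, is chr11:100888091-100888113 on the minus strand.
Stat3: ccctggaatggttgcAGATCAAA

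An 8 nt site for miR-3079-5p is present in 2.87% of all genes, and in 11% of the 1758 genes whose 3' UTR is at least as long as that of Stat3. Sites of 7 nt or more are present in 37.3% of those long 3' UTRs. Pairing of miR-3079-5p with Stat3 mRNA was not measured.

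Of 20 genes of JAK/STAT signalling, 5 (25%) have a site for miR-743b-5p against 18.2% of all genes, 3 (15%) for miR-3079-5p against 11.5%, and 5 (25%) for miR-7669-5p against 10.7%. For miR-743b-5p these are the kinases Jak1 and Tyk2 and the receptor genes Il6st (gp130), Il6ra and Osmr, with 8 nt sites in Il6st and Il6ra. For miR-3079-5p they are Stat3, the receptor gene Lifr, whose site is also 8 nt, and Socs3, a feedback inhibitor. For miR-7669-5p they are Stat2, with an 8 nt site, Il6st, Il6ra, Lifr and the inhibitor Socs1. The median 3' UTR of this list is 1475 nt against 962 nt over all genes, and the differences from the shares over all genes were not tested.

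Of 20 osteoclast genes, 3 (15%) have a site for miR-743b-5p, 2 (10%) for miR-3079-5p and 3 (15%) for miR-7669-5p. Over all genes the shares are 18.2%, 11.5% and 10.7%, so these counts are near the background. Their median 3' UTR is 1262 nt, and no test was made; the genes are named as a description. Traf6, the adaptor that RANK signals through, has 2 sites for miR-743b-5p, 1 of them 8 nt, and 1 for miR-3079-5p. Rela, a subunit of NF-kB, and Calcr, the calcitonin receptor, have a site for miR-743b-5p. Ocstamp, a membrane protein needed for the fusion of osteoclast precursors in mice, has sites for miR-3079-5p and, of 8 nt, for miR-7669-5p. Mitf, a transcription factor, and the kinase gene Src have a site for miR-7669-5p.

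Of 20 osteoblast genes, 6 (30%) have a site for miR-743b-5p, 5 (25%) for miR-3079-5p and 2 (10%) for miR-7669-5p, beside 18.2%, 11.5% and 10.7% of all genes. The list's median 3' UTR, at 1272 nt, is also longer than the 962 nt of all genes, and these differences were not tested. Bmpr1a, a type I receptor for bone morphogenetic proteins, is the only gene of the 3 lists with a site for all 3 miRNAs, in a 3' UTR of 3810 nt. Bmpr2, the type II receptor, has sites for miR-743b-5p and, of 8 nt, for miR-3079-5p. Runx2, the master transcription factor of osteoblasts, Smad5, Lrp6 and Ctnnb1 have sites for miR-743b-5p. Sp7, the transcription factor osterix, Dlx5 and Smad1 have sites for miR-3079-5p, 8 nt long in Smad1. Tnfsf11, which encodes RANKL itself, has 1 site for miR-7669-5p.

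All other 8 nt sites in the 3 lists are shown, as the longest matches, with the site in capitals and the bases before it in lower case, as many in all as the miRNA has nt.
Traf6, site for miR-743b-5p, chr2:101699971-101699992, plus strand: ttacttcaccacttTCTGAACA
Il6ra, site for miR-743b-5p, chr3:89865767-89865788, minus strand: agaaattatacattTCTGAACA
Il6st, site for miR-743b-5p, chr13:112505222-112505243, plus strand: gttgttgacattttTCTGAACA
Lifr, site for miR-3079-5p, chr15:7196188-7196210, plus strand: gtagcatatctttagAGATCAAA
Bmpr2, site for miR-3079-5p, chr1:59875152-59875174, plus strand: caacaccagatcaccAGATCAAA
Smad1, site for miR-3079-5p, chr8:79342315-79342337, minus strand: tgctcggcctcccccAGATCAAA
Stat2, site for miR-7669-5p, chr10:128292396-128292419, plus strand: gctctacggtgtgcttGTGGTACA
Ocstamp, site for miR-7669-5p, chr2:165394487-165394510, minus strand: ggattctttggcatccGTGGTACA

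Each of these sites is complementary to nt 2 to 8 of its miRNA and ends with an A opposite nt 1. They are matches of letters in annotated 3' UTRs, and neither the mRNAs nor their response to the miRNAs were measured in these libraries. Over all genes, 4.15% have an 8 nt site for miR-743b-5p, 2.87% for miR-3079-5p and 2.14% for miR-7669-5p. The 3' UTR has 8529 nt in Bmpr2, 7102 in Il6ra, 6320 in Lifr, 5641 in Il6st and 4170 in Traf6. It has 2086 nt in Ocstamp, 2041 in Smad1 and 1476 in Stat2, against a median of 962 nt over all genes.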

How the data were processed

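Small RNA of vesicles from 3 control and 3 RANKL-induced RAW264.7 samples was sequenced. Per the labels' protocols, the authors used ACGT101-mir, kept 18 to 26 nt, filtered other RNAs against mRNA, RFam and Repbase, and identified miRNAs by precursor and genome. Neither the software version nor a genome build is stated in the labels. The table has no header line. Its percent values, as deposited, equal the GC content of the hairpins, and its folding energies, deposited as a score with no stated unit, were not printed. The 12 per-library columns without names were not used. Depth and precision per sample are therefore not given, and the comparison of control with RANKL-induced libraries was not made.

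The members and gene lists were chosen with earlier results of these data known. Named were the 3 members, neighbouring and seed-sharing miRNAs, overlapping genes, and list genes with a site; the 3 lists are of 20 genes each. Hairpins were folded with RNAfold 2.7.2. Transcripts and annotation were GENCODE M21 (GRCm38). The 3' UTR of a gene is the longest stretch after the stop codon over its protein-coding transcripts. RefSeq (GRCm38.p6) gave mature and hairpin sequences. It was searched by miRNA name and held the mature 5p form of miR-743b and miR-7669, but not that of miR-3079. Site and mismatch searches were tested on simulated data. Python 3.11.15 was used. Each species was searched in transcripts, since no genome sequence was at hand.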

Additional observations from a re-analysis of the deposited data

How the results depend on the processing

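Of 32 values recomputed under another setting, 22 stayed the same or changed by at most 1.5 times. The other 10 changed by more, or changed between 0 and a nonzero count. Counting 8 nt sites only, which are a part of all sites, lowered the genes with a site to 871 for miR-743b-5p, 603 for miR-3079-5p and 450 for miR-7669-5p. In a window of 50000 bp in place of 10000 bp, the neighbouring miRNA genes rose to 14 for Mir743b and to 1 for Mir3079. With a seed of nt 2 to 7, miR-7669-5p shared it with 1 miRNA, miR-3101-5p, in place of 0. By RefSeq, Mir7669 overlapped 1 gene, without Gm19710. Words of 18 nt, an alternative chosen after seeing the data, left 40 other genes with a copy of the 3p arm of miR-7669, 0 for miR-743b and 0 for miR-3079. Energies with other parameters or without dangling ends, paired nt by RNAfold, ends against RefSeq, 1-mismatch matches and sites in any 3' UTR were among the 22. The ends against RefSeq could not differ, since the RefSeq forms of miR-743b-5p and miR-7669-5p are the same as the registered ones. They were not compared for miR-3079-5p, which has no RefSeq entry under its name. Searches of the genome, on all sequences or on assembled chromosomes, and folding with flanking genome sequence were not run. No paired analysis was possible because no value was assigned to a library. No value here was measured per library. The list of species and their listed ends come from the sequencing, and how they depend on the number and depth of libraries was not examined.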

Other observations

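Of the genes with a site for miR-743b-5p or miR-3079-5p, the largest number of sites in a single longest 3' UTR was 18 for each of the 2, and it was 8 for miR-7669-5p. The sites numbered 4748 in all for miR-743b-5p, 2894 for miR-3079-5p and 2649 for miR-7669-5p over 20997 genes.

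The miRNA that shares nt 2 to 7 with miR-7669-5p is miR-3101-5p from chromosome 7, and the miRNA that shares nt 2 to 8 with miR-743b-5p is miR-6948-5p. Their sequences, from RefSeq, are printed with nt 2 to 8 in capitals. In miR-3101-5p nt 8 is U, where miR-7669-5p has C. Outside the shared nt, both sequences differ from those of the listed species.
miR-3101-5p: gGUACCAUugacuaaagcuag
miR-6948-5p: aGUUCAGAcaggacugugacac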
